A study of Capra hircus with 9 samples.

Results

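chi-miR-126-3p and chi-miR-126-5p, the mature strands cut from both arms of the miR-126 hairpin, were followed through 3 stages of the goat mammary gland. They were chosen by name as a readout of the vessels of the gland and are 2 of the 1359 mature miRNAs listed in the deposited count table. Both were among the 696 miRNAs that passed the filter on low values and were tested. Small RNA of mammary tissue of Laoshan dairy goats (Capra hircus) was sequenced at 240 days postpartum (LL, late lactation), at 300 days postpartum (DP, the dry period) and at 140 days after mating (LG, late gestation). Each stage held 3 goats, each with its own library. The study's methods describe healthy goats of 1 farm in the third parity, the series' design text gives an average age of 4 years, and the labels name no treatment or altered gene that separated them. The labels also call the samples mammary cells, but the methods describe tissue, so each library mixed epithelium, fat, connective tissue, vessels and blood, and fewer cells of a type and less RNA per cell cannot be told apart in it. Each stage was sampled in different goats, and stage and goat cannot be told apart beyond the 3 goats per stage.

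miR-126 lies in an intron of EGFL7 in the mammals where its gene has been studied, and EGFL7 encodes a protein that endothelial cells secrete. Endothelial cells, which line blood vessels, are the best known site of miR-126, and platelets and some blood progenitors hold it as well. In endothelium the 3p strand restrains SPRED1 and PIK3R2, inhibitors of the signal of vascular endothelial growth factor, and so favours vessel integrity and growth, while the 5p strand is known to restrain DLK1 and to favour endothelial proliferation. The mammary gland builds a dense capillary bed around the alveoli in gestation and lactation, and part of this bed is lost when milk secretion ends. The deposited table holds miRNAs and no endothelial mRNA such as PECAM1 or CDH5, so the endothelial source of miR-126 was taken from this background and was not checked in these libraries. The stages compared ask how the level of miR-126 in the gland differed between lactating, dry and pregnant goats.

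In the goat annotation of the ARS1.2 build, which is also the build of the deposited data, MIR126 spans 82 bases of chromosome 11 (chr11:103503998-103504079). It lies within the coordinates of the protein-coding gene EGFL7 (chr11:103493921-103505661), 10077 bases from the lower end of EGFL7 and 1582 bases from its upper end. The gene table used here gives no strand, exons or introns, so the feature of EGFL7 that holds MIR126 is not stated. Neither strand had the same counts in all 9 libraries as another listed miRNA. This check finds only identical counts, so it cannot decide whether part of their reads was also counted under another name.

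The libraries held 16451436 to 24616668 counts in LL, 13672653 to 23392916 in DP and 21301913 to 34378995 in LG. A single miRNA, chi-miR-148a-3p, which is abundant in milk-secreting epithelium, took 48.4% to 59.4% of the counts in LL, 39.4% to 44.6% in LG and 8.81% to 10.8% in DP. Every other miRNA, miR-126 included, therefore shared a smaller remainder in LL and LG than in DP. Levels are given as CPM, the counts relative to the library's total after scaling by TMM, a method that trims the miRNAs with the most extreme differences before it matches libraries. Other scalings moved the values, as is given below for each comparison.

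chi-miR-126-3p was one of the most abundant miRNAs of the gland at all stages. It ranked between 9 and 12 in every library and took 1.17% to 2.94% of all counts. In LL the 3 goats had 199458, 258840 and 419943 counts, or 15650, 17100 and 22670 CPM. In DP they had 298560, 686658 and 639624 counts, or 18740, 31560 and 27890 CPM. In LG they had 471793, 368496 and 713458 counts, or 16180, 14550 and 16160 CPM. The 3 LG goats lay close together, and DP replicates 2 and 3 were higher than every other library, while DP replicate 1 fell between LL replicates 2 and 3. The mean was 26060 ± 6602 CPM (SD, n = 3) in DP, 18470 ± 3706 CPM (SD, n = 3) in LL and 15630 ± 935 CPM (SD, n = 3) in LG.

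chi-miR-126-5p, the minor strand, ranked between 91 and 115 in the 9 libraries. In LL the 3 goats had 2563, 4129 and 5811 counts, or 201.1, 272.8 and 313.6 CPM. In DP they had 4587, 9136 and 9684 counts, or 287.9, 419.8 and 422.3 CPM. In LG they had 5267, 4205 and 8350 counts, or 180.7, 166.0 and 189.2 CPM. All LG goats were lower than all LL and DP goats, and DP replicate 1 again fell within the range of LL. The mean was 376.7 ± 76.9 CPM (SD, n = 3) in DP, 262.5 ± 57.0 CPM (SD, n = 3) in LL and 178.6 ± 11.7 CPM (SD, n = 3) in LG. The counting error of a library was 0.118% to 0.224% of the value for the 3p strand and 1.02% to 1.98% for the 5p strand.

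**Figure D1:**
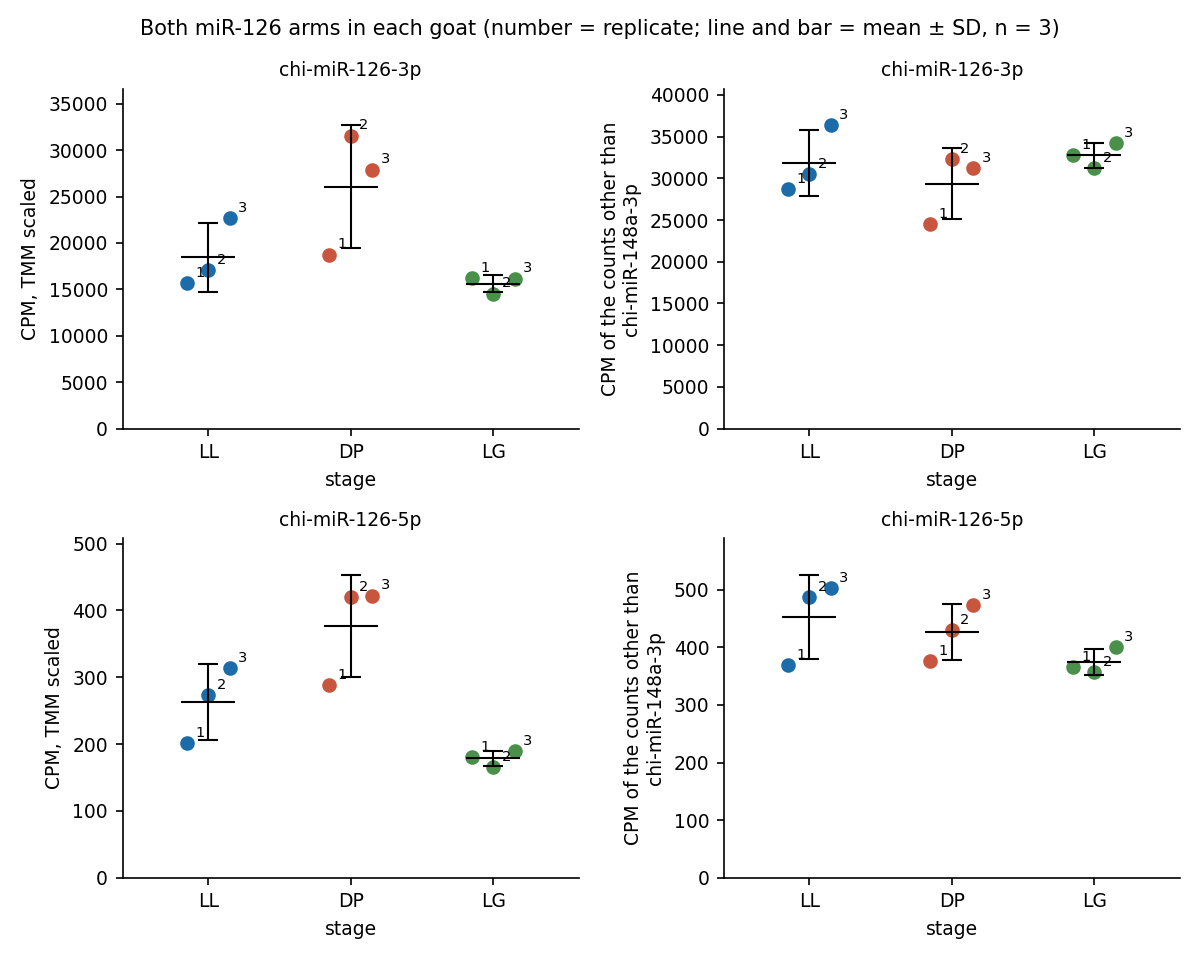
Level of chi-miR-126-3p (top) and chi-miR-126-5p (bottom) in each goat of LL, DP and LG, as CPM scaled by TMM (left) and as CPM of the counts other than those of chi-miR-148a-3p (right), with numbers marking the replicates and lines and bars giving the mean ± SD of 3 goats. With TMM all DP goats lay above all LG goats for both strands, whereas in the right panels the stages overlapped for both strands.

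Between DP and LG, both strands were higher in DP by edgeR's quasi-likelihood test, fitted over all 696 tested miRNAs with Benjamini-Hochberg adjustment. chi-miR-126-5p was higher by 1.08 on the log2 scale (SE 0.25, 95% confidence interval 0.52 to 1.63, adjusted p = 0.0075), a fold of 2.11. chi-miR-126-3p was higher by 0.74 (SE 0.24, 95% confidence interval 0.21 to 1.26, adjusted p = 0.0331), a fold of 1.67. The 3 DP goats lay above the 3 LG goats for both strands. This comparison held many differences, since 34.8% of the tested miRNAs passed at an adjusted p under 0.05, 23.7% passed with a higher and 11.1% with a lower level in DP, and 27.7% had all DP goats above all LG goats. With an absolute log2 fold change above 1 required as well, which 31.5% of the tested miRNAs met, the 5p strand passed and the 3p strand did not. The 5p strand was under this fold limit with each of 4 other scalings and in 8 of the 9 fits that left out 1 library, all but the one without DP replicate 1. Among the tested miRNAs, 73.7% had a lower log2 fold change than the 5p strand and 67.5% a lower one than the 3p strand. The call of the 3p strand was lost in 8 of the 9 fits that left out 1 library, all but the one without DP replicate 1, with log2 fold changes of 0.48 to 0.74. The call of the 5p strand was lost without DP replicate 3 and without LG replicate 1, 2 or 3, with log2 fold changes of 0.77 to 1.05 over the 9 fits and adjusted p of 0.00385 to 0.0648 (edgeR). With 4 other scalings of the libraries the 3p strand did not pass, while the 5p strand passed with 3 of them. With library size without chi-miR-148a-3p the log2 fold change was −0.16 for the 3p strand and 0.19 for the 5p strand. The 3p strand also did not pass in DESeq2, with 0.53 (adjusted p = 0.112, DESeq2).

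Between DP and LL, the differences did not pass the test. The log2 fold change was 0.50 for chi-miR-126-3p (SE 0.24, 95% confidence interval −0.03 to 1.02, adjusted p = 0.140, edgeR) and 0.52 for chi-miR-126-5p (SE 0.25, 95% confidence interval −0.03 to 1.07, adjusted p = 0.140, edgeR). For both strands, 2 of the 3 DP goats lay above all LL goats and DP replicate 1 did not. In this comparison 30.2% of the tested miRNAs passed, 17.2% with a higher and 12.9% with a lower level in DP, and 21.0% had all DP goats above all LL goats. Without DP replicate 1 the 3p strand passed with a log2 fold change of 0.57 (adjusted p = 0.0477, edgeR), so this call turned on 1 goat. With libraries scaled by their size only, both strands passed, with 0.84 for the 3p strand (adjusted p = 0.0142, edgeR) and 0.86 for the 5p strand (adjusted p = 0.0274, edgeR), and with chi-miR-148a-3p left out as well the values turned to −0.12 and −0.087.

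Between LL and LG, neither strand passed the test. chi-miR-126-3p differed by 0.24 on the log2 scale (SE 0.24, 95% confidence interval −0.28 to 0.76, adjusted p = 0.548, edgeR), with overlapping goats, and by −0.049 without LL replicate 3. chi-miR-126-5p differed by 0.56 (SE 0.25, 95% confidence interval 0.007 to 1.104, adjusted p = 0.147, edgeR), and all LL goats lay above all LG goats, as they did for 31.0% of the tested miRNAs. With libraries scaled by their size only, the values turned to −0.35 for the 3p strand and −0.0235 for the 5p strand. In this comparison 14.7% of the tested miRNAs passed, 9.77% with a higher and 4.89% with a lower level in LL. The order of the stages was thus DP, LL and LG for both strands, and neither the neighbours DP and LL nor LL and LG passed at the adjusted p of edgeR. For the 5p strand between LL and LG the unadjusted p of edgeR with TMM was 0.0476. Its log2 fold change also turned on the setting, with 0.37 in DESeq2 (SE 0.26), 0.42 with upper quartile scaling (SE 0.27) and 0.54 in limma-voom (SE 0.25).

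An exact permutation test of the level of each strand over the 280 ways to split 9 libraries into 3 stages gave p = 0.0464 for chi-miR-126-3p, p = 0.0143 for chi-miR-126-5p and p = 0.0464 for the sum of both, with 0.00357 the smallest p that it can give. Adjusted over 4 values, the fourth being the ratio of the strands, each of these was 0.05 in the exact permutation test and so did not lie under 0.05.

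The scaling of the libraries moved these values. With libraries scaled by their size only, as shares of all counts, chi-miR-126-3p took 2.66% ± 0.412 (SD, n = 3) of the counts in DP, 1.48% ± 0.281 (SD, n = 3) in LL and 1.89% ± 0.175 (SD, n = 3) in LG, so that LL and LG changed places. As a share of the counts other than those of chi-miR-148a-3p, it had 24490, 32320 and 31270 CPM in DP, while LL had 28720, 30520 and 36350 CPM and LG had 32800, 31230 and 34240 CPM, and the stages overlapped. On this scale the log2 fold change of the 3p strand between DP and LG was −0.16, against 0.74 with TMM. The scaling moved the whole table with it. The median log2 fold change of all tested miRNAs between DP and LG went from −0.67 to 0.18 over 5 scalings, and the miRNAs that passed were 165 higher and 77 lower in DP with TMM, 144 higher and 95 lower with upper quartile scaling, 125 higher and 107 lower with TMM without chi-miR-148a-3p, 128 higher and 88 lower with library size, and 56 higher and 219 lower with library size without chi-miR-148a-3p. Between DP and LL, 120 were higher and 90 lower with TMM, against 181 higher and 62 lower with library size and 46 higher and 174 lower with library size without chi-miR-148a-3p. Between LL and LG, 68 were higher and 34 lower in LL with TMM, 52 and 46 with upper quartile scaling, 49 and 47 with TMM without chi-miR-148a-3p, 32 and 92 with library size, and 44 and 55 with library size without chi-miR-148a-3p.

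Each strand was also set against the median of all tested miRNAs. A scaling shifts all miRNAs of a library together, so this difference hardly depends on the scaling by its construction, and its small range over scalings is no sign of stability. Between DP and LG, chi-miR-126-5p was 0.85 to 0.91 above that median on the log2 scale over 5 scalings, and chi-miR-126-3p was 0.51 to 0.57 above it. With 1 library left out in turn, these values ran from 0.84 to 1.15 for the 5p strand and from 0.48 to 0.84 for the 3p strand. Between DP and LL the 5p strand was 0.38 to 0.41 and the 3p strand 0.36 to 0.39 above the median over the scalings. They fell to 0.246 and 0.275 without LL replicate 1, and were 0.66 and 0.664 without DP replicate 1. Between LL and LG the 5p strand was 0.38 to 0.40 above the median over the scalings, and 0.31 to 0.52 with 1 library left out. The 3p strand was 0.07 above it, against −0.022 without LL replicate 3 and 0.153 without LL replicate 1. A change in the absolute level of miR-126 cannot be read from these libraries.

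**Figure D2:**
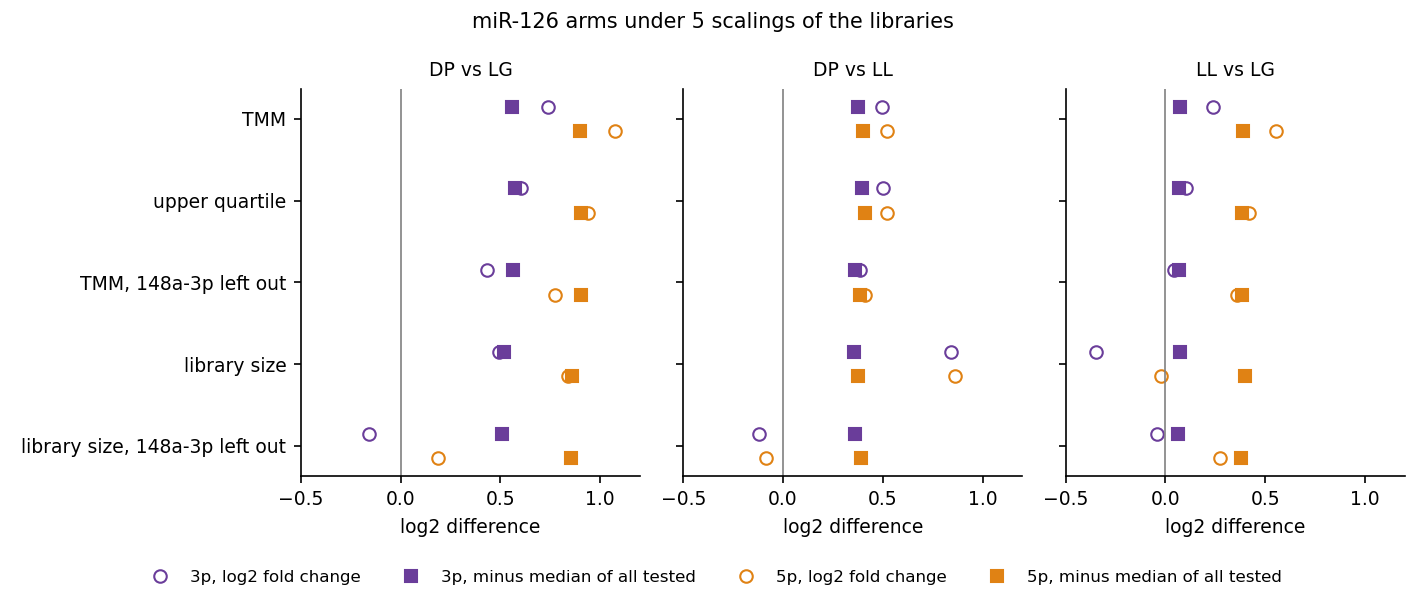
Log2 difference of chi-miR-126-3p (purple) and chi-miR-126-5p (orange) between stages under 5 scalings of the libraries, as the log2 fold change (open circles) and as that value minus the median of all 696 tested miRNAs (filled squares). The open circles cross 0 in each panel for the 3p strand, and the squares, which by construction hardly depend on the scaling, lie between 0.51 and 0.57 for the 3p strand and between 0.85 and 0.91 for the 5p strand for DP vs. LG.

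miR-126 varied little between goats of the same stage. The SD of log2 CPM within a stage was 0.28 for chi-miR-126-3p and 0.27 for chi-miR-126-5p, against a median of 0.39 over all tested miRNAs, and 74.1% and 77.4% of them varied more. LG had the tightest goats, with a coefficient of variation of 5.98% for the 3p strand, against 20.1% in LL and 25.3% in DP.

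The ratio of both strands does not depend on the scaling, since both come from the same library. The 3p strand was the dominant one in all 9 libraries, although ligation and amplification favour some small RNAs over others, so a ratio of counts is not a ratio of molecules. It had 77.8, 62.7 and 72.3 times the counts of the 5p strand in LL, 65.1, 75.2 and 66.1 times in DP, and 89.6, 87.6 and 85.4 times in LG. The LG goats lay above all other goats, and LL and DP overlapped. All LG libraries lay above or below all others in 12 of 129 hairpins, or 9.3%. The mean was 68.8 ± 5.56 (SD, n = 3) in DP, 70.9 ± 7.65 (SD, n = 3) in LL and 87.6 ± 2.07 (SD, n = 3) in LG. The 5p strand thus made up 1.104% to 1.157% of the miR-126 counts in LG and 1.27% to 1.57% in the other libraries. In LG replicate 3, the LG library with the most of it, its share was 1.16% (95% Wilson interval 1.13% to 1.18%), and in LL replicate 1, the library outside LG with the least, 1.27% (95% Wilson interval 1.22% to 1.32%). These intervals cover counting error of reads only, not the spread between goats.

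The change in the ratio did not pass the test. In limma, fitted over the 129 hairpins with both strands tested, the log2 ratio of 5p to 3p was 0.35 higher in DP than in LG (SE 0.22, 95% confidence interval −0.13 to 0.83, adjusted p = 0.255) and 0.31 higher in LL than in LG (95% confidence interval −0.17 to 0.79, adjusted p = 0.582). The difference between DP and LL was 0.04 (95% confidence interval −0.44 to 0.52, adjusted p = 0.914). Of the 129 hairpins, 27.9% passed between DP and LG and 30.2% between DP and LL. Between LL and LG 0.0% passed, with 19 at an unadjusted p under 0.05 in limma. The exact permutation test over the 3 stages gave p = 0.05 for the ratio of miR-126. These tests differ in the spread they use, since limma drew the spread of each hairpin towards that of all hairpins. The SD of the log2 ratio within a stage was 0.11 for miR-126 and 0.37 for the median hairpin, and it was larger in each of the other hairpins, 99.2% of the 129. With the spread modelled on the level of the weaker strand, a setting chosen after the data were seen, the adjusted p in limma was 0.178 between DP and LG and 0.479 between LL and LG.

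Among the hairpins, miR-126 was one of the more one-sided. The 3p strand dominated in 56 of them and the 5p strand in 73, and in 109 the same strand dominated in every library. The median hairpin had 14.99 times more counts of its dominant strand, against 75.0 times for miR-126, and 40 hairpins were more one-sided than miR-126. The size of its shift between DP and LG was larger than that of 37.2% of the hairpins, and that between LL and LG was larger than that of 58.1%. Other hairpins shifted further between DP and LG. The log2 ratio of 5p to 3p was 2.30 higher in DP for chi-miR-125b (SE 0.22, adjusted p = 2.53e-05, limma). It fell by 1.31 for chi-miR-145 (SE 0.30, adjusted p = 0.0102, limma), a miRNA known in smooth muscle and pericytes. The next values cover hairpins that passed with at least 50 counts of each strand in every library. Between DP and LL their extremes were a rise of 2.02 for chi-let-7b (adjusted p = 0.0078, limma) and a fall for chi-miR-7, by −1.66 (adjusted p = 0.0258, limma).

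**Figure D3:**
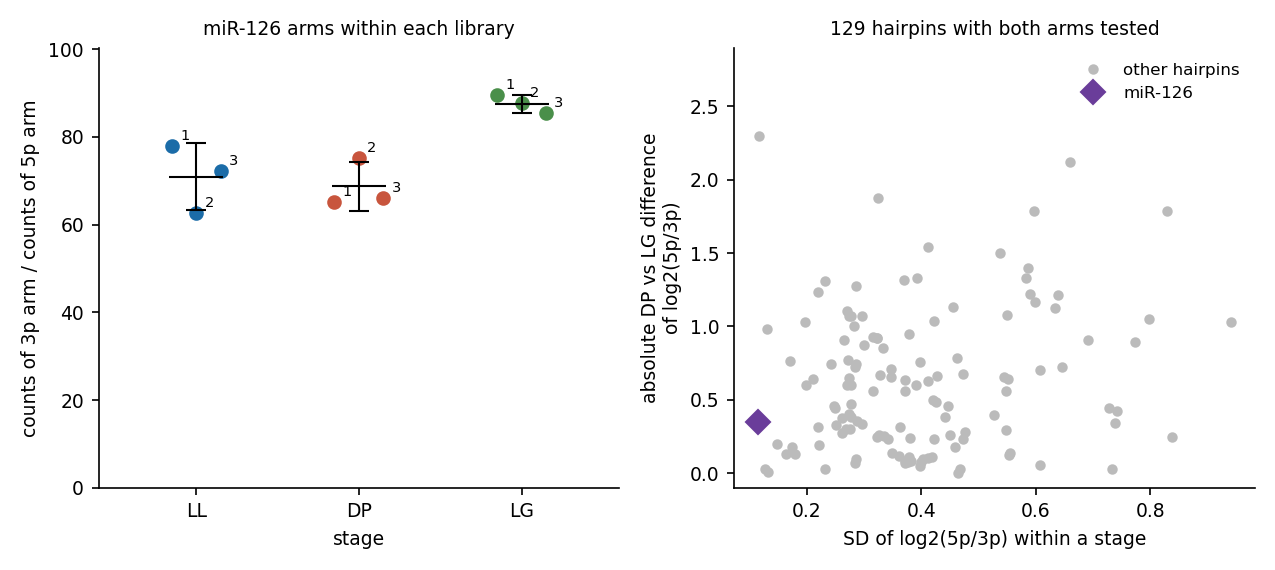
Left, counts of chi-miR-126-3p divided by those of chi-miR-126-5p in each goat, with the mean ± SD of 3 goats and replicate numbers. Right, the absolute difference in log2(5p/3p) between DP and LG against its SD within a stage for 129 hairpins, in which miR-126 (diamond) has the smallest SD, 0.11.

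The miRNAs whose levels ran most like those of miR-126 were sought by Pearson's r of log2 CPM over the 9 libraries, as a description. The strands of miR-126 had r = 0.942 with each other. For chi-miR-126-3p the closest were chi-miR-214-5p (r = 0.950), chi-miR-125a-3p (r = 0.944), the predicted miRNA NC_030826.1_25217 (r = 0.943), chi-miR-99b-5p (r = 0.928) and chi-miR-24-5p (r = 0.927). For chi-miR-126-5p they were chi-miR-10a-5p (r = 0.941), chi-miR-199a-5p (r = 0.938) and the 3p strands chi-miR-199a-3p, chi-miR-199c-3p and chi-miR-199b-3p (each r = 0.941). The last pair had the same counts in all 9 libraries and cannot be told apart. chi-miR-199a-3p had nearly the same means as that pair, with 19790 CPM beside 19760 CPM in DP, and was not a separate neighbour. The median r over all tested miRNAs was 0.092 for the 3p strand and 0.10 for the 5p strand. All points share the 3 stages and the scaling, so any miRNA that was high in DP tends towards a high r.

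Each of these had a larger log2 fold change between DP and LG than the strand of miR-126 it resembled, a difference that was not tested. chi-miR-214-5p had means of 84.7 CPM in DP, 26.8 CPM in LL and 19.8 CPM in LG, with a log2 fold change of 2.10 between DP and LG (adjusted p = 0.0032, edgeR). chi-miR-199a-3p had 19790 CPM in DP, 5274 CPM in LL and 3302 CPM in LG, with a log2 fold change of 2.58 (adjusted p = 0.000226, edgeR). Both come from loci best known in fibroblasts and other mesenchymal cells. chi-miR-10a-5p, a miRNA of the HOX clusters that endothelial cells also express, had 3444 CPM in DP, 1729 CPM in LL and 1078 CPM in LG, with a log2 fold change of 1.68 (adjusted p = 0.000336, edgeR).

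Other miRNAs linked to vessels were taken from a list of 19, of which 16 were in the table and tested. Most of them are also expressed outside endothelium. All lists used here were chosen with earlier results of these data known. A count above the share of all tested miRNAs is therefore no independent support for a change in the cells of a list. Between DP and LG 11 rose and 3 fell, where 23.7% of all tested miRNAs rose and 11.1% fell, with a median log2 fold change of 1.38 against 0.18 over all tested miRNAs. Between DP and LL 9 rose and 1 fell, where 17.2% of all rose and 12.9% fell, with a median of 1.18 against 0.12. Between LL and LG 0 rose and 1 fell in edgeR, where 9.77% of all rose and 4.89% fell, with a median of −0.03 against 0.17. At an unadjusted p under 0.05, 1 was higher and 3 were lower in LL, and DESeq2 and limma-voom also gave 0 that rose. The number that rose between DP and LG was 5 with libraries scaled by size without chi-miR-148a-3p, 8 to 11 under the other 4 scalings, and 7 without LG replicate 1 against 8 to 12 without another library. Under the former scaling, by size without chi-miR-148a-3p, 5 also rose between DP and LL and 3 fell, against 9 and 1 with TMM.

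The vessel-linked miRNAs did not all move like miR-126. chi-miR-27b-3p, of a cluster that promotes vessel sprouting, was the most abundant and had 27150 CPM in DP, 16040 CPM in LL and 16010 CPM in LG. Its log2 fold change between DP and LG was 0.76 (SE 0.33, adjusted p = 0.0918, edgeR), beside 0.74 for chi-miR-126-3p. chi-miR-10b-5p, of the HOX clusters, had 12720 CPM in DP, 10080 CPM in LL and 6921 CPM in LG, with a log2 fold change of 0.88 between DP and LG (SE 0.29, adjusted p = 0.0353, edgeR). chi-miR-221-3p, which restrains the stem cell factor receptor KIT in endothelium, rose by 1.93 on the log2 scale (SE 0.22, adjusted p = 0.000209, edgeR) from 210.9 CPM in LG to 803.5 CPM in DP. chi-miR-100-5p showed the largest change between DP and LL, from 2562 CPM in LL to 10310 CPM in DP (log2 2.01, SE 0.31, adjusted p = 0.00105, edgeR).

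Other members of the list fell in DP. chi-miR-378-3p, which comes from an intron of PPARGC1B and is also abundant in tissues of high energy use, had 882 CPM in DP, 3502 CPM in LL and 3918 CPM in LG, and fell by 2.15 on the log2 scale between DP and LG (SE 0.26, adjusted p = 0.000226, edgeR). chi-miR-92a-3p, a member of the miR-17-92 cluster that restrains vessel growth and is also abundant in dividing cells and red cells, had 1430 CPM in DP, 1700 CPM in LL and 2902 CPM in LG. It fell by 1.02 between DP and LG (SE 0.21, adjusted p = 0.00375, edgeR), and it was the member that fell between LL and LG (log2 fold change −0.77, SE 0.21, adjusted p = 0.0336, edgeR). This fall between LL and LG was lost without LL replicate 1 or 2 or LG replicate 1, and the list had 3 falls with library size, in DESeq2 and without DP replicate 1 or 3, 2 without a filter and with library size without chi-miR-148a-3p, and 4 with only the 2 stages compared. Without DP replicate 1, 1 member also rose. chi-miR-424-5p passed in no comparison in edgeR, and had means of 20.1 CPM in DP, 8.45 CPM in LL and 30.0 CPM in LG (log2 fold change between LL and LG −1.83, SE 0.70, adjusted p = 0.101, edgeR).

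The strands of miR-143 and miR-145, which are known in smooth muscle cells and pericytes, were described in the same way. Whether their counts came from the vessel wall or from other cells of the gland was not tested. Of these 4 strands, 1 rose between DP and LG, beside 23.7% of all tested miRNAs, 0 passed between DP and LL in edgeR, in DESeq2 and in limma-voom, with 0 at an unadjusted p under 0.05 in edgeR, and 1 rose between LL and LG, beside 9.77% of all. The absence of falls turned on DP replicate 3 and on the scaling, since 1 strand fell between DP and LL with library size without chi-miR-148a-3p. Without DP replicate 3, 3 of the 4 fell between DP and LL and the median log2 fold change went from −0.016 to −1.05, and between DP and LG 1 rose and 1 fell and the median went from 0.69 to −0.53. chi-miR-143-3p had 82770 CPM in LL, 61290 CPM in DP and 55510 CPM in LG, with a log2 fold change of 0.14 between DP and LG (SE 0.45, adjusted p = 0.832, edgeR). chi-miR-145-5p had 5447 CPM in LL, 3333 CPM in DP and 2532 CPM in LG, with a log2 fold change of −0.71 between DP and LL (SE 0.45, adjusted p = 0.252, edgeR). chi-miR-145-3p was the strand that rose, by 1.62 between DP and LG (SE 0.29, adjusted p = 0.00184, edgeR) and by 1.22 between LL and LG (SE 0.29, adjusted p = 0.0183, edgeR), from 385.2 CPM in LG to 1186 CPM in DP and 897.7 CPM in LL. The list's 1 call between LL and LG was lost with library size, without a filter, with at least 10 counts in every library, and without DP replicate 2 or any 1 of the LL or LG replicates, and that between DP and LG was lost with library size without chi-miR-148a-3p.

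**Figure D4:**
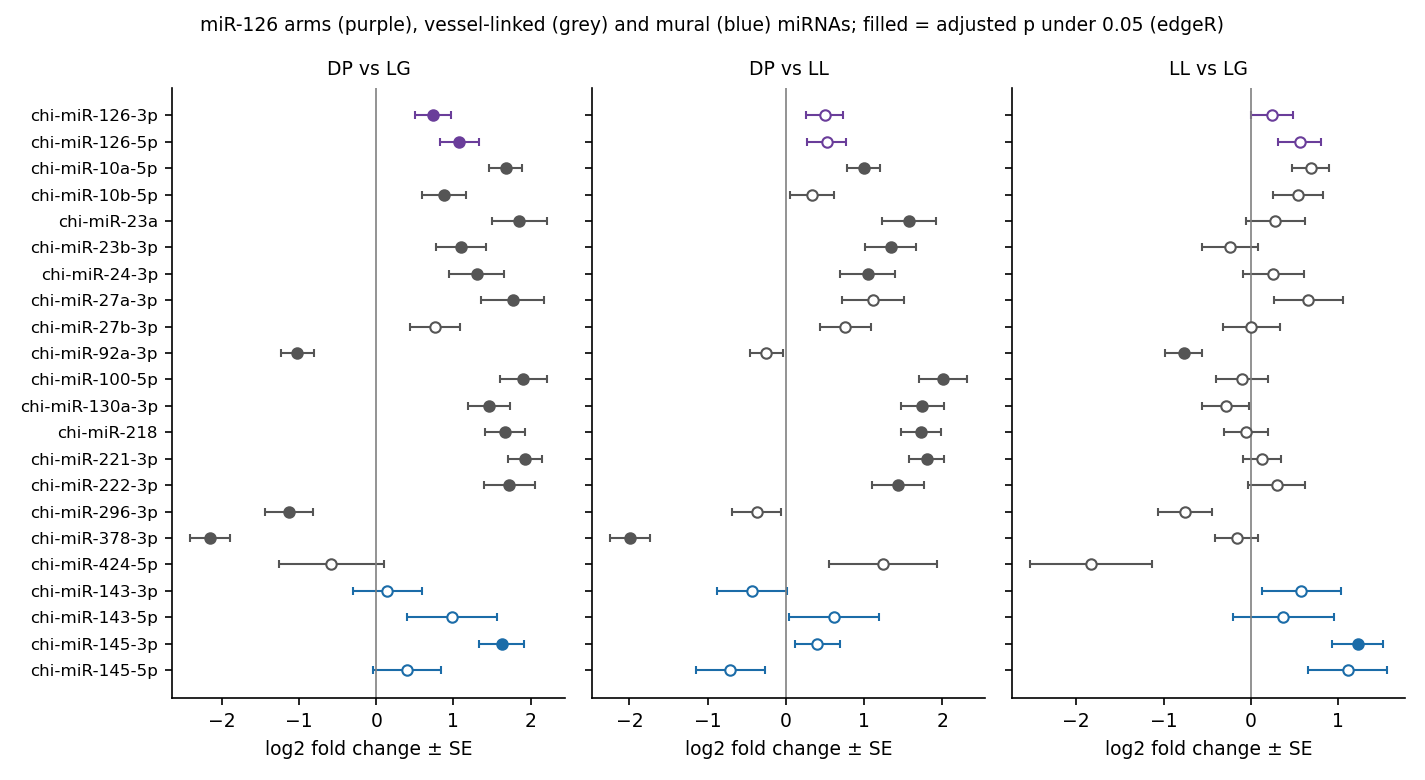
Log2 fold change ± SE (edgeR, TMM) of the strands of miR-126 (purple), of 16 vessel-linked miRNAs (grey) and of the 4 strands of miR-143 and miR-145 (blue) for DP vs. LG, DP vs. LL and LL vs. LG, with filled points for an adjusted p under 0.05. Between DP and LG 11 grey points are filled to the right of 0 and 3 to the left, and both strands of miR-126 lie to the left of most of the former.

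Markers of other cells of the gland, from lists also chosen with earlier results known, moved with the stages beside miR-126. All 5 fibroblast miRNAs rose in DP against LG and against LL, where 23.7% and 17.2% of all tested miRNAs rose, with median log2 fold changes of 2.10 and 1.66, although 3 of them passed against LL without LL replicate 1 or 2. Their summed level was 22240 to 35810 CPM in DP, 6265 to 12500 CPM in LL and 6049 to 6535 CPM in LG. Of the 8 epithelial miRNAs tested, 5 fell between DP and LG, and 5 fell and 1 rose between DP and LL, where 11.1% and 12.9% of all fell. Another 2 were higher in DP than in LG at an unadjusted p under 0.05, and with the replicate block 2 rose in each of these comparisons. The 1 that rose between DP and LL was not called in most alternatives, among them both scalings without chi-miR-148a-3p, both other filters, only the 2 stages compared, and without any 1 of the LL replicates, DP replicate 1 or 2 or LG replicate 2 or 3. With libraries scaled by size, 2 fell between DP and LL. The summed epithelial level was 14060 to 22390 CPM in DP, 35320 to 43020 CPM in LL and 34930 to 38640 CPM in LG. chi-miR-200b, the most abundant of them, which holds cells in an epithelial state, had 10920 CPM in DP, 23640 CPM in LL and 19740 CPM in LG (log2 fold change between DP and LG −0.85, SE 0.22, adjusted p = 0.013, edgeR).

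The blood and muscle lists, also chosen with earlier results known, were described in the same way. All 5 leukocyte miRNAs tested rose between DP and LG, 1 rose between DP and LL and 3 rose between LL and LG, beside 23.7%, 17.2% and 9.77% of all tested miRNAs. Their summed level was 1254 to 2431 CPM in DP, 921.0 to 1339 CPM in LL and 409.7 to 639.7 CPM in LG. The number that rose between DP and LG was 2 without DP replicate 2, LG replicate 2 or LG replicate 3, and also 2 with libraries scaled by size without chi-miR-148a-3p. The number that rose between LL and LG was 1 without LL replicate 1, and 0 without LG replicate 3 in edgeR. chi-miR-155-5p, a miRNA of activated leukocytes, had 817.6 CPM in DP, 464.8 CPM in LL and 175.1 CPM in LG (log2 fold change between DP and LG 2.22, adjusted p = 0.000628, edgeR). Of the 3 red cell miRNAs, 1 rose between DP and LG, beside 23.7% of all tested miRNAs. This call was lost in limma-voom, with library size without chi-miR-148a-3p, without DP replicate 2 and without any 1 of the LG replicates. Without DP replicate 3, 1 rose and 1 fell. Their summed level was 122.0 to 1284 CPM in DP, 364.5 to 550.9 CPM in LL and 87.1 to 167.6 CPM in LG. chi-miR-451-5p, the defining one, had 656.2 CPM in DP and 134.0 CPM in LG (log2 fold change 2.29, SE 0.64, adjusted p = 0.0176, edgeR). Of the 5 muscle miRNAs, 2 rose between DP and LG and 1 between DP and LL, beside 23.7% and 17.2% of all tested miRNAs. Their summed level was 970.6, 1070 and 3444 CPM in DP replicates 1, 2 and 3 and 419.2 to 931.7 CPM elsewhere. Both calls between DP and LG were lost with library size without chi-miR-148a-3p and 4 members rose without DP replicate 1, and the median log2 fold change of 1.72 was 0.40 without DP replicate 3. Without DP replicate 1 or 2, 2 rose between DP and LL. No member of any list was at 0 in a library. The part of these cells in the level of miR-126 was not tested.

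The counts of chi-miR-126-3p were also set against the summed counts of each list in the same library, which needs no scaling. Against the epithelial list, chi-miR-126-3p had 0.837, 1.58 and 1.98 times its counts in DP, 0.418, 0.398 and 0.642 times in LL and 0.419, 0.417 and 0.426 times in LG. All DP goats lay above all other goats. Against the fibroblast list it had 0.843, 1.01 and 0.779 times its counts in DP, 2.50, 2.00 and 1.81 times in LL and 2.68, 2.23 and 2.47 times in LG. All DP goats lay below all other goats on this measure. Relative to the summed epithelial miRNAs, chi-miR-126-3p was thus higher in DP, and relative to the summed fibroblast miRNAs it was lower. A sum follows its most abundant members rather than the whole list. In LL, chi-miR-200b had 23640 CPM of a mean epithelial sum of 38610 CPM. In DP, chi-miR-199a-3p had 19790 CPM of a mean fibroblast sum of 29820 CPM.

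Against the vessel-linked list, chi-miR-126-3p had 0.438, 0.367 and 0.299 times its counts in DP, 0.411, 0.398 and 0.471 times in LL and 0.398, 0.395 and 0.379 times in LG, and the stages overlapped. Against the strands of miR-143 and miR-145 it had 0.600, 0.750 and 0.223 times their counts in DP, 0.197, 0.237 and 0.195 times in LL and 0.262, 0.273 and 0.266 times in LG. LL lay below LG on this measure, and DP replicate 3 stood apart from the other DP goats, which lay above all other libraries. This sum was mostly chi-miR-143-3p, with 82770 CPM of a mean sum of 89340 CPM in LL. The ratio to the red cell list ran from 24.6 to 154 in DP, from 28.4 to 62.2 in LL and from 94.5 to 186 in LG, and varied most within DP.

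**Figure D5:**
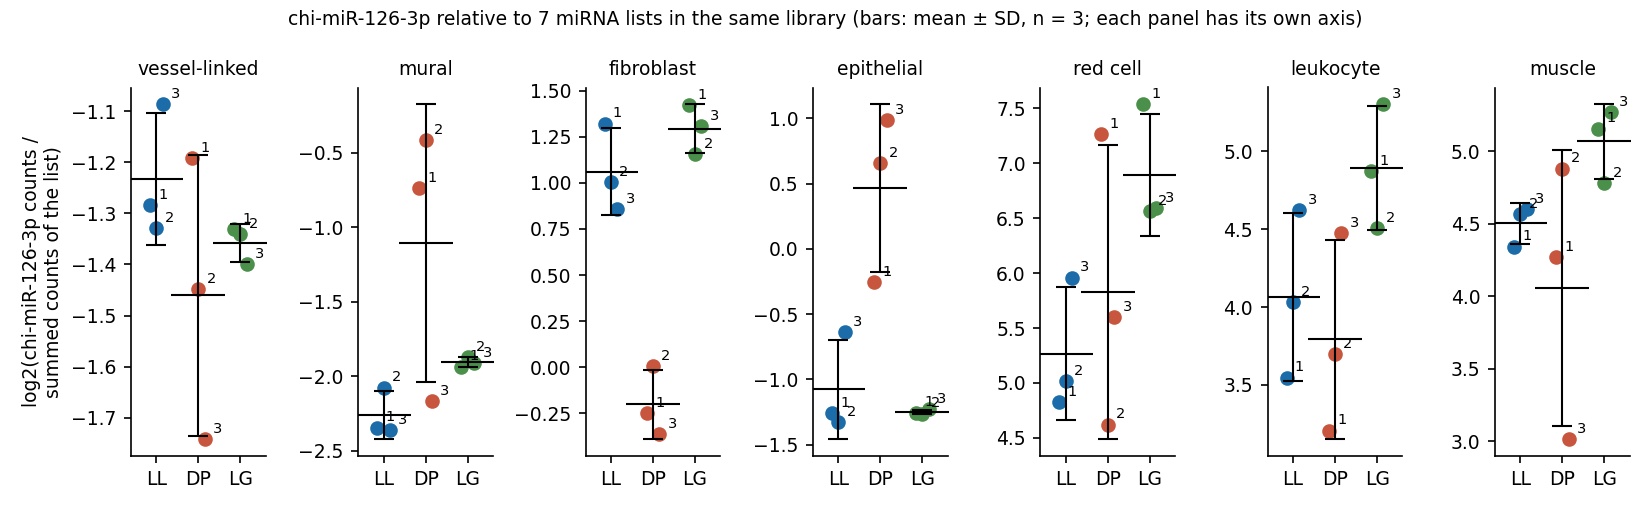
Log2 of the counts of chi-miR-126-3p divided by the summed counts of each of 7 lists of miRNAs in the same library, by stage, with numbers marking the replicates and bars the mean ± SD of 3 goats, each panel on its own axis. The DP goats lie above all others for the epithelial list and below all others for the fibroblast list, while the stages overlap for the vessel-linked list.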

How the data were processed

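Small RNA libraries of 9 goats, 3 each of LL, DP and LG, were grouped by their titles. Goats of a stage were separate animals. Per the study's methods and the submitters' processing notes, which name FastQC 0.11.9, cutadapt 4.2 and Bowtie 1.1.1, the authors trimmed the reads, mapped them to the goat genome (ARS1.2) and counted them on known miRNAs of miRBase and on predicted ones with miRDeep2. The methods name Trimmomatic for the trimming, and which trimmer was used was not settled. The authors deposited raw read counts without normalization. LL replicate 3 was treated as a column of expected counts, because the authors deposited 2 predicted miRNAs there at 209.5, and it was rounded to whole numbers. The study's FPKM filter and RUVSeq step were not applied. No column of the table was left unused.

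A miRNA was tested if 3 or more libraries had 0.5 CPM or more of it, which held for 696. The test was that of edgeR 4.0.16 (glmQLFit and glmQLFTest, TMM) in R 4.3.3, in 1 fit of all 9 libraries with stage as the only term and Benjamini-Hochberg adjustment. SE was the absolute log2 fold change divided by the square root of F. The study's limits for differential expression, an absolute log2 fold change above 1 and an adjusted p under 0.05, were given beside the adjusted p alone. Log2 ratios of both strands (pseudocount 0.5 CPM) were tested with limma 3.58.1 over 129 hairpins. Single values were tested with an exact two-sided permutation test of F in Python 3.11.15 with scipy 1.17.1. Alternatives were DESeq2 1.42.0, limma-voom, other scalings, other filters, only the 2 stages compared, leaving out each library and a replicate block. In simulated counts for DP and LG, edgeR recovered 28.6% of the miRNAs with a true absolute log2 fold change of 1 and 80.6% of those with 2. There were 5 false calls. The limma test recovered 41.8% of 55 hairpins with a changed ratio, with 1 false call. A difference that did not pass is thus no sign of equal levels. Intervals of shares cover counting error only, since no molecular identifiers were counted and reads can be copies of 1 molecule.

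The lists held 19 vessel-linked, 4 smooth muscle and pericyte, 5 fibroblast, 9 epithelial, 4 red cell, 7 leukocyte and 5 muscle miRNAs. chi-miR-132-3p, chi-miR-210-3p, chi-miR-503-5p, chi-miR-205, chi-miR-486-5p, chi-miR-142-3p and chi-miR-142-5p were not analysed here. The members and lists were chosen with earlier results of these data known. Named were both strands of miR-126, the 5 miRNAs with the highest r with each strand and chi-miR-148a-3p. Also named were the hairpins with the largest rise and fall of the ratio among those that passed with at least 50 counts of each strand in every library. For the vessel-linked list and the strands of miR-143 and miR-145, the 2 most abundant members and the one with the largest change in each comparison were named. Of the members of the other lists that this rule selects, only chi-miR-199a-3p, chi-miR-200b, chi-miR-155-5p and chi-miR-451-5p were named, and no muscle miRNA was. chi-miR-221-3p, chi-miR-92a-3p and the defining markers were named after their values were seen. miRNAs that share a seed with miR-126 were not sought, and no sequences were used here.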

Additional observations from a re-analysis of the deposited data

How the results depend on the processing

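The difference of chi-miR-126-3p between DP and LG passed in 3 of 19 alternatives (limma-voom, the replicate block and without DP replicate 1) and that of chi-miR-126-5p in 13 of 19. Log2 fold changes of chi-miR-126-3p between DP and LG that did not pass were 0.53 with DESeq2, 0.61 with upper quartile scaling, 0.49 with library size, 0.43 with TMM without chi-miR-148a-3p, 0.37 without a filter, 0.38 with at least 10 counts in every library and 0.74 with only the 2 stages compared, and the value turned to −0.16 with library size without chi-miR-148a-3p. Those of chi-miR-126-5p were 0.19 with library size without chi-miR-148a-3p and 0.71 without a filter. Between DP and LL, library size gave calls at 0.84 for chi-miR-126-3p and 0.86 for chi-miR-126-5p, and library size without chi-miR-148a-3p turned them to −0.12 and −0.087. Between LL and LG the value of chi-miR-126-3p turned to −0.35 with library size, −0.040 with library size without chi-miR-148a-3p, −0.078 without a filter and −0.019 with at least 10 counts, and that of chi-miR-126-5p to −0.0235 with library size.

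With each library left out in turn, the log2 fold change of chi-miR-126-3p ran from 0.48 to 0.74 between DP and LG, from 0.43 to 0.66 between DP and LL and from −0.049 to 0.17 between LL and LG, with −0.049 without LL replicate 3. That of chi-miR-126-5p ran from 0.77 to 1.05, from 0.41 to 0.67 and from 0.28 to 0.49. The difference in the log2 ratio of the strands between DP and LL ran from −0.029, without LL replicate 1, to 0.13. The ratio gave no call under 16 alternatives. The numbers of miRNAs that passed ran from 155 (without LG replicate 3) to 285 between DP and LG, from 125 (without LL replicate 1; 132 without LL replicate 2) to 218 between DP and LL, and from 33 to 167 between LL and LG, against 242, 210 and 102. For the latter they were 33, 37 and 64 without LL replicate 1, 2 or 3, 167 without DP replicate 1, 55, 62 and 41 without LG replicate 1, 2 or 3, and 188 with only the 2 stages compared.

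The exact permutation test over the 3 stages gave p = 0.175 for chi-miR-126-3p, 0.0536 for chi-miR-126-5p and 0.171 for their sum with upper quartile scaling, and 0.204, 0.0607 and 0.2 with TMM without chi-miR-148a-3p. With library size it gave 0.00357, 0.0321 and 0.00357 (exact permutation p adjusted over the 3 values 0.00536, 0.0321 and 0.00536), in another order of the stages, DP, LG and LL. The cause of these changes was not tested. The replicate numbers do not pair the goats, which differ between stages. The deviations of same-numbered libraries had r from −0.063 to 0.265, over 0.1 in 4 of 9 pairs, and 6 of 9 libraries correlated best with their own number. With a replicate block, 240, 193 and 99 miRNAs passed, and the log2 fold changes between DP and LG were 0.71 for chi-miR-126-3p (adjusted p = 0.0376, edgeR) and 1.05 for chi-miR-126-5p (adjusted p = 0.0085, edgeR), which changed no call of miR-126.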
